A study of Mus musculus with 4 samples.

Results

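Kupffer cell identity receptors were followed in mouse liver through 10 genes chosen by symbol: Clec4f, Vsig4, Cd5l, Timd4, Marco, Clec1b, Folr2, Adgre1, Adgre4 and Csf1r. All 14 probe sets annotated with exactly 1 of these symbols were taken, out of 45101 probe sets and 18194 genes on the arrays. All 10 genes and 13 of the 14 probe sets were at 4 or more (log2) on at least 1 array, a level that 8650 genes reached. Below 4, a probe set was taken as not measurable. The livers came from male C57BL/6J mice that were 8 to 12 weeks old when the diets began and were fed for 20 weeks. The 4 groups were a high-fat diet (45% of energy from fat) with clodronate liposomes, the same diet with phosphate-buffered saline (PBS), a low-fat diet (10% of energy from fat) with clodronate liposomes, and the low-fat diet with PBS. Palm oil stood in for lard in both diets, and each mouse received 2 injections into the peritoneal cavity in the last week. Liver RNA of 10 mice per high-fat group and of 8 mice per low-fat group was pooled into 1 array per group, so mouse-to-mouse spread is unknown. The labels name PBS without liposomes, and the liposome, the drug and the loss of phagocytes cannot be told apart as sources of a difference.

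Kupffer cells are the resident macrophages of the liver. They sit in the sinusoids and clear bacteria, dying cells, aged red cells and complement-coated particles from the blood. In mice they carry a characteristic set of lectins, scavenger receptors and adhesion receptors, and they depend on signalling through Csf1r, the receptor for colony-stimulating factor 1 and interleukin-34. Clodronate is toxic to phagocytes once they have taken up the liposomes. The list was not limited to membrane receptors or to Kupffer cells: Cd5l is a secreted protein, and Adgre1 and Csf1r are found on macrophages of most tissues.

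Promoter windows from 250 bases before to 50 bases after the gene start were given for 8 of the 10 genes in RefSeq (GRCm38.p6), with 9 windows in all, while Adgre1 and Csf1r had none. Below are the windows of the 3 genes with the largest differences after clodronate, and of Clec1b, which had the smallest difference among the genes measured on all 4 arrays. Capitals mark the PU.1 core GAGGAA and the MAF motif TGCTGA, each on either strand, and the rest is in lower case. PU.1 and MAF are transcription factors of macrophages. Clec4f lies at chr6:83656067-83656366 (minus strand), Vsig4 at chrX:96293389-96293688 (minus strand), Cd5l at chr3:87357631-87357930 (plus strand) and Clec1b at chr6:129397047-129397346 (plus strand), and each sequence runs 5′ to 3′ along its gene's strand.
Clec4f: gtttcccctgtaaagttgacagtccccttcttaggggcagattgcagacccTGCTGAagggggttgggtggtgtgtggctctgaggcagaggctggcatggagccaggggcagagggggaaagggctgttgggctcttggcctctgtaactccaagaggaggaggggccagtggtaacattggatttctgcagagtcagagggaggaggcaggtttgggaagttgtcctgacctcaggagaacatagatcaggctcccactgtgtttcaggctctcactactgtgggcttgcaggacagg
Vsig4: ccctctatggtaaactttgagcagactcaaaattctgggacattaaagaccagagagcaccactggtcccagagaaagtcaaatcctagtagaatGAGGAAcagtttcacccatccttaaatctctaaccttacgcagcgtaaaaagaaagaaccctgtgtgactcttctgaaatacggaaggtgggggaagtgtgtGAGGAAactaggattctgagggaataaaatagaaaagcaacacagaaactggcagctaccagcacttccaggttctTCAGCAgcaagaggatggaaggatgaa
Cd5l: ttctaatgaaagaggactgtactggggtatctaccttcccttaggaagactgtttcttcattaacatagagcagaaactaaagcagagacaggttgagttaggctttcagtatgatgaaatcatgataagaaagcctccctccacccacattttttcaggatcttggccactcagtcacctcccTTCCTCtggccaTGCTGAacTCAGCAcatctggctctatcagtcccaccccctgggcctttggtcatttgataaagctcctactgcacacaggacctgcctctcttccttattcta
Clec1b: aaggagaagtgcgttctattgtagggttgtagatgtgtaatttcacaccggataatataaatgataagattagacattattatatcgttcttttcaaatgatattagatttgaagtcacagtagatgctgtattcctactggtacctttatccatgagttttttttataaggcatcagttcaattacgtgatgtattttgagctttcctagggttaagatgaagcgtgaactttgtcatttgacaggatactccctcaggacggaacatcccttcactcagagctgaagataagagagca

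The PU.1 core was present in windows of 4 genes, Vsig4, Cd5l, Marco and Adgre4, and in 28.3% of all 32851 windows in the table. Vsig4 held it at bases -155 and -53 from the start, and Cd5l held its reverse complement TTCCTC at base -66. The MAF motif was found in 5 genes, Clec4f, Vsig4, Cd5l, Folr2 and Timd4, and in 19.5% of all windows. In Cd5l it occurred at base -54 and, as TCAGCA, at base -46. The RBPJ motif GTGGGAA, of the factor that carries Notch signals, had no match in the 9 windows and was present in 6.38% of all windows. The nuclear receptor motif AGGTCA was present in Clec4f and Timd4 and in 16.3% of all windows, and the E-box CANNTG in 5 of the 8 genes and in 72.3% of all windows. Clec1b held an E-box but neither the PU.1 core nor the MAF motif. Matches overlapped in Folr2, where an E-box shared bases with the MAF motif in both windows, and in Marco, where the E-boxes overlapped each other. These matches describe letters in a window and are not binding sites.

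**Figure D1:**
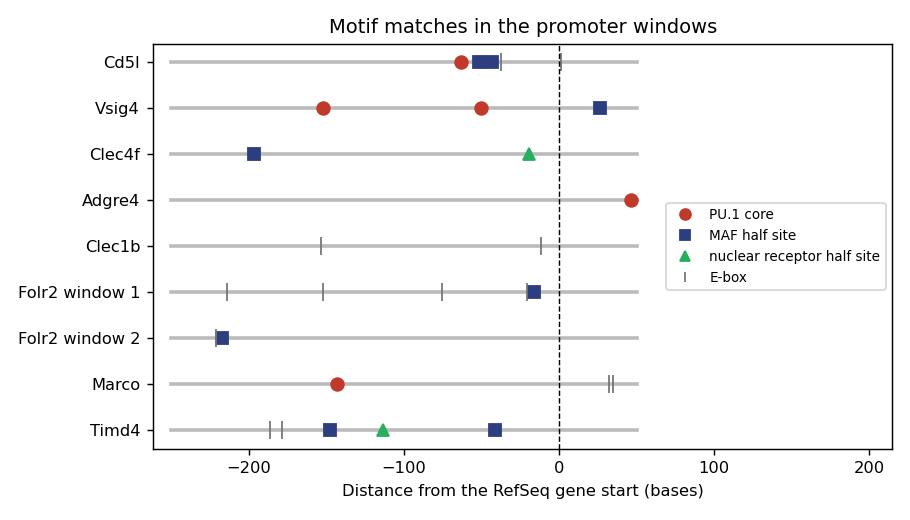
Positions of motif matches on both strands in the 9 promoter windows, by distance in bases from the RefSeq gene start. Circles are the PU.1 core, squares the MAF motif, triangles the nuclear receptor motif and ticks the E-box. The PU.1 core appears in Cd5l, Vsig4, Adgre4 and Marco, and Clec1b has E-boxes alone.

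After clodronate, the signal of nearly the whole set was lower on both diets. With values below 4 set to 4, 8 of 10 genes were 2-fold or more lower on the high-fat diet, against 0.809% of the 8650 genes, and 9 of 10 on the low-fat diet, against 0.705%. The genes not counted were Timd4 on both diets and Marco on the high-fat diet, which were below or within 0.04 of 4 with PBS already. The median log2 difference of the 10 genes was -3.05 on the high-fat diet and -3.86 on the low-fat diet, while that of all genes was -0.05 and 0.04. Averaged over both diets, 10 of 10 genes fell in limma with Benjamini-Hochberg adjustment over all genes, against 0.971% of genes. Marco and Timd4 entered the model through the low-fat PBS pool alone, where they were highest. Clec4f, Vsig4, Folr2 and Adgre1 entered it through the PBS pools alone. With values below 4 set to 4, these 6 genes could not come out higher after clodronate. The shares of all genes were not selected in this way. The model used values as deposited. For Marco, Timd4, Clec4f, Vsig4, Folr2 and Adgre1 both clodronate values were below 4, and for Cd5l and Adgre4 the low-fat one. The p-values of these genes thus rest in part on values taken as not measurable. With values below 4 set to 4 in the model, 8 of 10 fell, without Marco and Timd4. In the additive model 1 residual degree of freedom stands for noise and for any difference of the effect between the diets, and the p-values reflect array-to-array spread alone, which may be technical. With a constant prior of 3.17 degrees of freedom in place of the mean-dependent prior, 5 of 10 fell, against 0.451% of genes. These were Clec4f, Vsig4, Timd4, Adgre1 and Csf1r. The other 5 had adjusted p-values of 0.0741 for Cd5l, 0.0531 for Clec1b, 0.0631 for Folr2, 0.0757 for Adgre4 and 0.331 for Marco in that limma fit with Benjamini-Hochberg adjustment. In RNA of whole liver, fewer Kupffer cells and less of a transcript per cell cannot be told apart.

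**Figure D2:**
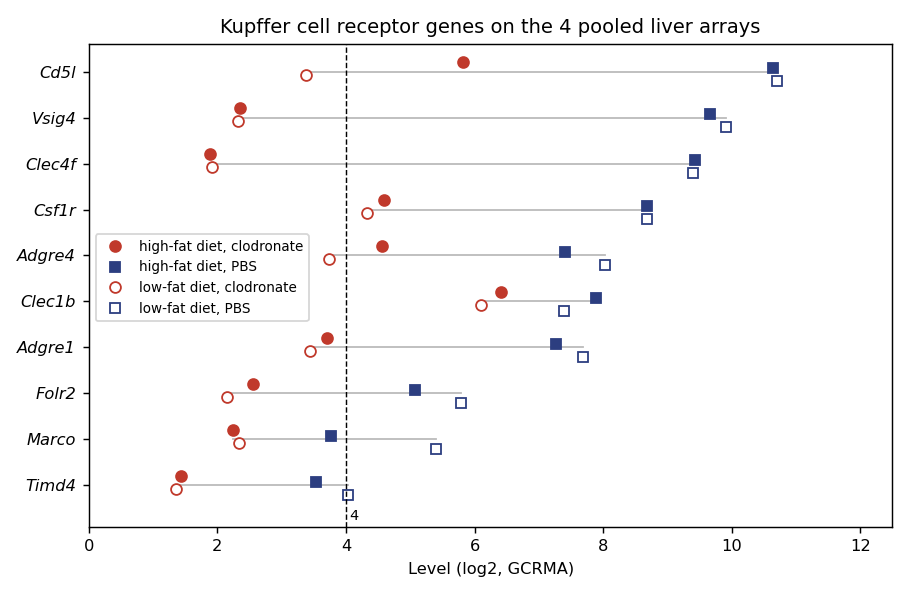
Level (log2) of the 10 genes on the 4 pooled liver arrays, 1 point per array, with the dashed line at 4, below which values were treated as too dim. Filled symbols are the high-fat diet and open ones the low-fat diet. Clodronate pools (circles) lie below PBS pools (squares) in each gene, though for Timd4 and Marco both high-fat values are below 4. On both clodronate arrays, 6 genes are below 4.

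Among the lectins and complement receptors, Clec4f is a C-type lectin that in mice is made by Kupffer cells and binds galactose-bearing glycans. It was at 1.88 on the high-fat and 1.92 on the low-fat diet with clodronate, against 9.42 and 9.40 with PBS. Both clodronate pools were far below 4 and both PBS pools far above it, with PBS levels that differed by 0.02 between the diets. The signal was at least 42.9-fold lower on the high-fat diet and at least 42.3-fold lower on the low-fat diet (limma over both diets, Benjamini-Hochberg adjusted p = 2.42e-08).

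Vsig4 is the complement receptor with which Kupffer cells catch particles coated with fragments of complement C3. Its level was 2.35 on the high-fat and 2.31 on the low-fat diet with clodronate, against 9.66 and 9.91 with PBS. As for Clec4f, the clodronate pools of both diets were below 4, and the difference was a bound of at least 50.7-fold and at least 60.1-fold (limma over both diets, Benjamini-Hochberg adjusted p = 2.42e-08).

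Clec1b is a lectin receptor for podoplanin, best known from platelets. It was at 6.40 on the high-fat and 6.11 on the low-fat diet with clodronate, against 7.89 and 7.38 with PBS. The pools of the injections did not overlap, yet unlike the other lectin it stayed well above 4 on all 4 arrays. Of the PBS signal on the linear scale, 35.7% was left on the high-fat and 41.2% on the low-fat diet. It fell by 1.38 ± 0.15 (log2, mean and SD over 2 diets; limma, Benjamini-Hochberg adjusted p = 0.00101, and 0.000761 to 0.0531 over the settings). None of the 6 platelet markers reached 4 on any array, with Pf4 at most at 3.83, and Pdpn, which encodes podoplanin, was also below 4 throughout. Which cells the remaining Clec1b signal came from was not tested.

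The scavenger and engulfment genes were less alike. Cd5l, a secreted protein of the scavenger receptor cysteine-rich family that protects macrophages from apoptosis, was at 5.82 on the high-fat and 3.38 on the low-fat diet with clodronate, against 10.64 and 10.71 with PBS. The PBS pools were nearly equal, whereas the clodronate pools were not: the high-fat pool stayed above 4 and the low-fat pool was below it. The signal was 28.2-fold lower on the high-fat diet and at least 105-fold lower on the low-fat diet (limma over both diets, Benjamini-Hochberg adjusted p = 5.03e-05).

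Marco, a scavenger receptor that binds bacteria and particles, was at 2.25 on the high-fat and 2.33 on the low-fat diet with clodronate, against 3.77 and 5.40 with PBS. A single pool, low-fat with PBS, was above 4. The gene was at least 2.63-fold lower after clodronate on the low-fat diet, and on the high-fat diet both pools were too dim to compare. Timd4, which recognises phosphatidylserine on dying cells, was at 1.44 on the high-fat and 1.36 on the low-fat diet with clodronate, against 3.54 and 4.04 with PBS. The low-fat PBS pool was again the highest, and it exceeded 4 by 0.04. Both genes passed in limma (Benjamini-Hochberg adjusted p = 0.00928 for Marco and 0.00106 for Timd4), but these calls rest on values below 4, and both were lost when such values were set to 4 (Benjamini-Hochberg adjusted p = 1 for each in limma).

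Folr2, the folate receptor beta of tissue macrophages, was at 2.56 on the high-fat and 2.15 on the low-fat diet with clodronate, against 5.07 and 5.79 with PBS. It was at least 2.11-fold lower on the high-fat diet and at least 3.46-fold lower on the low-fat diet (limma over both diets, Benjamini-Hochberg adjusted p = 0.000337). These bounds are small because the PBS levels were near 4, and they do not rank Folr2 against brighter genes.

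Adgre1 and Adgre4 are adhesion receptors with epidermal growth factor-like repeats, of which Adgre1 is the classical surface marker of mouse macrophages. Adgre1 was at 3.70 on the high-fat and 3.44 on the low-fat diet with clodronate, against 7.27 and 7.69 with PBS, at least 9.64-fold and at least 12.9-fold lower (limma over both diets, Benjamini-Hochberg adjusted p = 1.16e-05). Adgre4 was at 4.56 on the high-fat and 3.74 on the low-fat diet with clodronate, against 7.40 and 8.02 with PBS. It was 7.14-fold lower on the high-fat diet and at least 16.3-fold lower on the low-fat diet (limma over both diets, Benjamini-Hochberg adjusted p = 0.000144). With PBS the high-fat pools of both genes were lower than the low-fat pools, and with clodronate they were higher as deposited, although for Adgre1 both clodronate values were below 4.

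Csf1r, the growth factor receptor on which Kupffer cells depend, was at 4.59 on the high-fat and 4.33 on the low-fat diet with clodronate, against 8.69 and 8.68 with PBS. Together with Clec1b it was measured above 4 on all 4 arrays. The PBS pools differed by 0.01 between the diets, and the clodronate pools by 0.25. The signal was 17.2-fold lower on the high-fat and 20.3-fold lower on the low-fat diet. It fell by 4.22 ± 0.17 (log2, mean and SD over 2 diets; limma, Benjamini-Hochberg adjusted p = 5.94e-07).

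**Figure D3:**
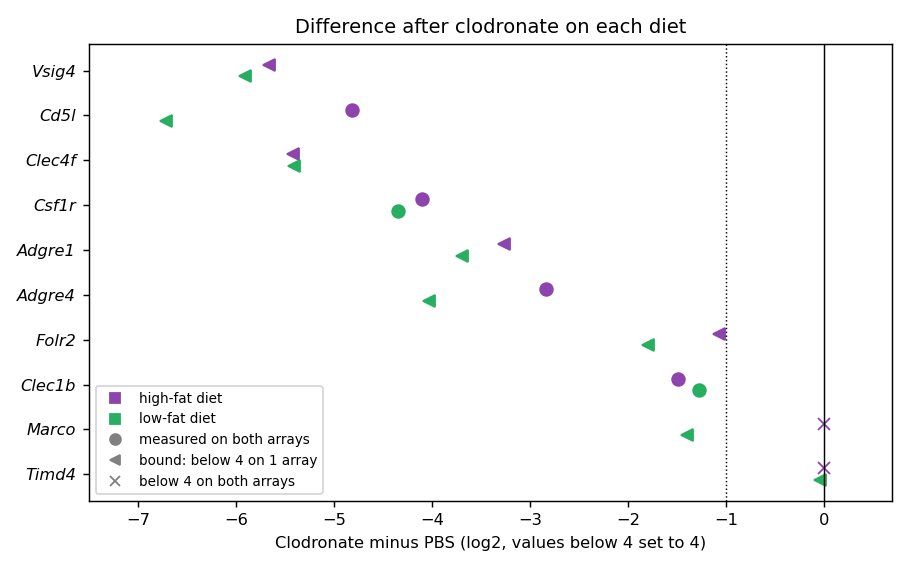
Clodronate minus PBS (log2, values below 4 set to 4) for the 10 genes on the high-fat (purple) and the low-fat diet (green). Circles were measured on both arrays, triangles are bounds with 1 array below 4, crosses have both arrays below 4, and the dotted line is a 2-fold difference. Clec1b lies at -1.49 and -1.28, and Csf1r at -4.10 and -4.35, on the high-fat and the low-fat diet.

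Of the genes, 3 had several probe sets, which share a target and are not replicates. The 3 probe sets of Csf1r were each lower with clodronate, by 17.2-fold, 4.19-fold and at least 9.95-fold on the high-fat diet, and by 20.3-fold, 9.73-fold and at least 10.6-fold on the low-fat diet. Probe set 1423593_a_at, with the smallest of these differences, was at 5.25 on the high-fat and 4.21 on the low-fat diet with clodronate, against 7.32 and 7.49 with PBS. Its high-fat clodronate pool was above its low-fat clodronate pool by 1.05, against 0.25 for the probe set used for the gene. A dim second probe set of Adgre4 was at 1.89 and 2.48 with clodronate, against 3.997 and 4.37 with PBS, on the high-fat and low-fat diet. It thus reached 4 in the low-fat PBS pool alone. Its high-fat clodronate pool was below its low-fat one, unlike in the probe set used for the gene, but both clodronate values were below 4. The second probe set of Marco was below 4 on all 4 arrays, at most at 3.55. When each of the 16298 probe sets at 4 or more on at least 1 array was tested on its own, 12 of the 13 probe sets fell, against 0.442% of all (limma, Benjamini-Hochberg), and the probe set of Marco did not pass (limma, Benjamini-Hochberg adjusted p = 0.138). Those of Clec4f, Vsig4, Folr2, Adgre1 and Timd4, 1424998_at of Adgre4 and 1419873_s_at of Csf1r reached 4 in PBS pools alone. Their calls thus rest in part on clodronate values taken as not measurable. The share of all probe sets was not selected in this way.

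**Figure D4:**
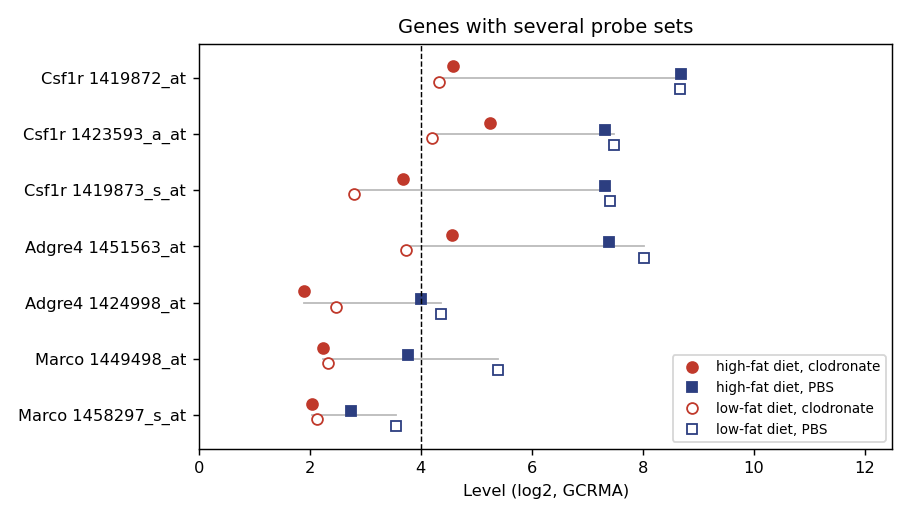
Level (log2) on the 4 arrays of the 7 probe sets of Csf1r, Adgre4 and Marco (circles clodronate, squares PBS, filled high-fat, open low-fat diet), with the dashed line at 4. Of these, 3 are above 4 in a clodronate pool, and 1423593_a_at of Csf1r has the widest gap between its clodronate pools among the Csf1r probe sets above 4.

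The diet comparison in PBS-injected mice showed mostly small differences. On the high-fat diet 7 of the 10 genes were lower and 3 higher, with a median log2 difference of -0.16, against 0.00 for all genes, of which 48.9% were lower. Marco and Timd4 reached 4 in the low-fat PBS pool alone, so with values below 4 set to 4 they could only come out lower. The shares of all genes were not selected in this way. Marco was at least 2.63-fold lower, the only gene of the set past 2-fold, against 0.335% of all genes. Folr2 was 1.64-fold lower, Adgre4 1.54-fold and Adgre1 1.34-fold lower, and Vsig4 and Cd5l were lower by 1.19-fold and 1.05-fold. Clec1b was 1.42-fold higher. Clec4f and Csf1r were higher by 0.02 and 0.01 (log2), and the sign of both turned under quantile normalization. No difference in this comparison has a replicate check.

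In clodronate-injected mice, 4 genes reached 4 in at least 1 pool, and the other 6 were below 4 on both. All 4 were higher on the high-fat than on the low-fat diet, as were 33.1% of all genes. Cd5l and Adgre4 reached 4 in the high-fat pool alone, so with values below 4 set to 4 they could only come out higher. The share of all genes was not selected in this way. Cd5l was at least 3.54-fold higher, the single gene past 2-fold, against 0.358% of all genes. Adgre4 was at least 1.48-fold higher, Clec1b 1.23-fold and Csf1r 1.19-fold higher, while the median of all genes was -0.08 (log2). The direction of Clec1b and Csf1r, measured in both pools, was the same after the arrays were centred and after quantile normalization. Centring moved that median by 0.11 (log2). The direction of Cd5l and Adgre4 was also the same, but it was fixed by the floor. Clec4f and Vsig4 were at 1.88 and 2.35 in the high-fat pool, against 1.92 and 2.31 in the low-fat pool, so no residual signal was measurable on either diet. C1qb, a complement C1q chain and macrophage gene outside the set, was at 6.02 on the high-fat and 4.04 on the low-fat diet with clodronate. It was the only 1 of 14 measured pan-macrophage genes past 2-fold there. The differences of these genes ran from -0.33 to 1.97 (log2), with a median of 0. The part of C1qb in the Cd5l difference was not tested.

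Averaged over both injections, 0 of 10 genes changed with diet in limma with Benjamini-Hochberg adjustment, against 1.69% of all genes. At an unadjusted p under 0.05 there were 3 of 10, Cd5l, Marco and Clec1b, against 13.2% of all genes, and 1 of 10 when the mean-dependent prior was left out, against 10.3%. The diet term of Cd5l combined opposite directions in the clodronate and PBS pools. It was 1.18 (log2) with the low-fat clodronate value of 3.38 taken as it stands (limma, Benjamini-Hochberg adjusted p = 0.273), and 0.88 with that value set to 4 (adjusted p = 0.451 in limma with Benjamini-Hochberg adjustment). Clec1b, measured on all 4 arrays, had a diet term of 0.40 and was higher on the high-fat diet with either injection (limma, Benjamini-Hochberg adjusted p = 0.291). Whether clodronate acted differently on the diets could not be tested, as that term shares its 1 degree of freedom with the noise.

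Other Kupffer cell genes were lower as well. Of 10, 8 fell after clodronate in limma with Benjamini-Hochberg adjustment, against 0.971% of all genes. On the high-fat diet 6 were 2-fold or more lower, against 0.809% of all genes, and on the low-fat diet 7, against 0.705%. Both clodronate values of Axl and Cd163 were below 4, so their calls rest in part on values taken as not measurable. Cd163, the haemoglobin scavenger receptor, was at 1.34 on the high-fat and 2.04 on the low-fat diet with clodronate, against 6.77 and 7.95 with PBS. Cfp, properdin of the complement system, was 7.39-fold lower on the high-fat and at least 10.5-fold lower on the low-fat diet. Il18bp, which binds interleukin-18, was 3.71-fold and 4.91-fold lower, and Hmox1, haem oxygenase, 3.95-fold and 4.22-fold lower, on the high-fat and the low-fat diet. Slc40a1, the iron exporter, fell by 0.62 (log2) in limma with Benjamini-Hochberg adjustment (adjusted p = 0.0053). C6 and Slc16a9 did not pass (Benjamini-Hochberg adjusted p = 1 for each in limma), with log2 differences of -0.13 and -0.07 averaged over the diets after values below 4 were set to 4, which Slc16a9 had on both clodronate arrays.

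Pan-macrophage genes fell as well. Of 14 tested, 11 fell (limma, Benjamini-Hochberg), against 0.971% of all genes. Both clodronate values of Cd68, Aif1, C1qa and C1qc were below 4, so their calls rest in part on values taken as not measurable. The summed linear signal of the 15 genes was 1598 on the high-fat and 1614 on the low-fat diet with clodronate, against 5722 and 6132 with PBS. The complement C1q chains were far lower on the high-fat and the low-fat diet, by at least 38.8-fold and at least 43.4-fold for C1qa, by 15.4-fold and 56.4-fold for C1qb, and by at least 17.5-fold and at least 19.7-fold for C1qc. Tyrobp, a signalling adaptor of myeloid receptors, was 9.31-fold lower on the high-fat and 6.04-fold lower on the low-fat diet. Mrc1, the mannose receptor, which sinusoidal endothelial cells also express, was at 9.02 and 9.11 with clodronate, against 9.35 and 9.39 with PBS, and did not pass (limma, Benjamini-Hochberg adjusted p = 0.441).

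Transcription factors linked to Kupffer cell identity gave no calls, but whole-liver RNA does not show which cells their signals came from. Of 9 tested, 0 passed in limma with Benjamini-Hochberg adjustment, with 2 at an unadjusted p under 0.05, and Spi1, the gene of PU.1, and Spic were below 4 on all 4 arrays. Zeb2 was at 5.78 on the high-fat and 5.76 on the low-fat diet with clodronate, against 6.04 and 6.41 with PBS. Maf differed by -0.16 and -0.27 on the high-fat and the low-fat diet, and Id1 by -0.22 and 0.75. Irf8 differed by -0.28 and -0.51, and Rbpj, the factor of Notch signalling, by 0.06 and 0.39. Of the 5 measured ligands and niche signals 0 passed (limma, Benjamini-Hochberg), with 1 at an unadjusted p under 0.05. That gene was Csf1, the ligand of Csf1r, at 4.54 on the high-fat and 4.93 on the low-fat diet with clodronate, against 3.96 and 4.33 with PBS. Il34, the other ligand, was below 4 on all 4 arrays.

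Markers of other cells gave no calls after clodronate. The 10 markers of sinusoidal endothelial cells had median differences of 0.03 on the high-fat and 0.16 on the low-fat diet, the 7 measured stellate cell markers 0.02 and -0.01, and the 7 hepatocyte markers -0.03 and -0.01, and 0 of these passed in limma with Benjamini-Hochberg adjustment (1, 0 and 0 at an unadjusted p under 0.05). Clec4g, a lectin of sinusoidal endothelial cells, was at 10.13 on the high-fat and 10.25 on the low-fat diet with clodronate, against 10.10 and 10.14 with PBS. Pecam1 of endothelial cells differed by -0.75 and -0.26, and Dcn, a matrix gene of stellate cells, by -0.05 and 0.16, on the high-fat and the low-fat diet. Hepatocyte markers such as Apoa1, at 14.72 to 14.79 on the 4 arrays, marked the tissue as liver. Monocyte and recruited macrophage markers were below 4 on all 4 arrays for 7 of the 9 with a probe set, Ccr2 and Cx3cr1 included. The measured ones were Plac8 and Cd9, and neither passed after clodronate (limma, Benjamini-Hochberg). Cd9 was lower on the high-fat than on the low-fat diet, at 8.06 against 9.19 with clodronate and 8.12 against 9.10 with PBS. It passed for diet (limma, Benjamini-Hochberg adjusted p = 0.00121). Among the neutrophil markers, S100a8 was at 3.07 on the high-fat and 4.15 on the low-fat diet with clodronate, against 2.67 and 2.14 with PBS, S100a9 was above 4 in the low-fat clodronate pool alone, and 4 of 6 were below 4 on all arrays. Of these, 0 passed (limma, Benjamini-Hochberg), with 2 at an unadjusted p under 0.05. Ighm, the only measured B cell marker of 5, was at 7.26 on the high-fat and 6.80 on the low-fat diet with clodronate, against 6.25 and 6.14 with PBS (limma, Benjamini-Hochberg adjusted p = 0.0559). T and NK cell markers were below 4 throughout. The part of these cells in the receptor differences was not tested.

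**Figure D5:**
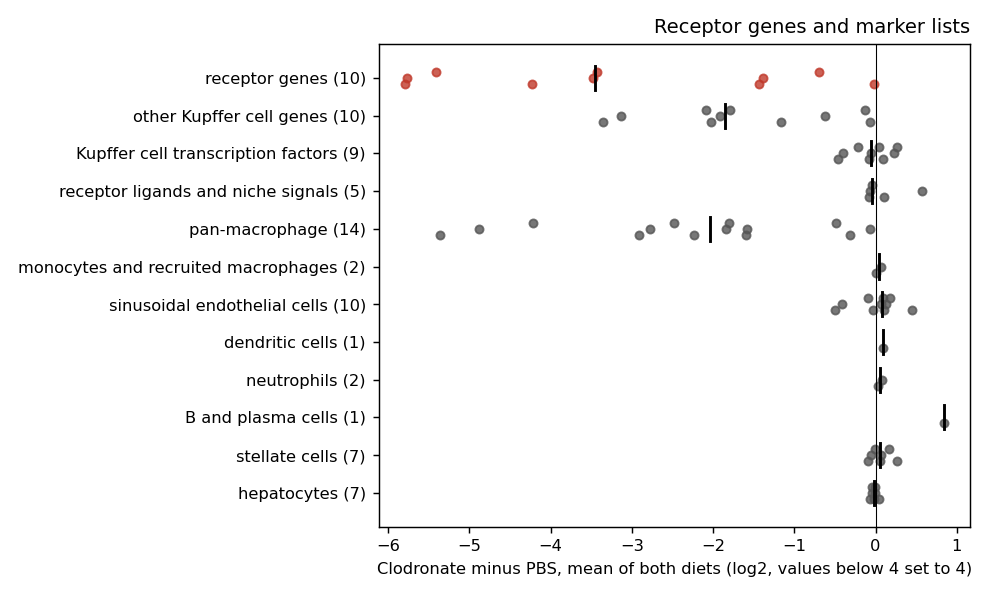
Clodronate minus PBS averaged over both diets (log2, values below 4 set to 4), 1 point per detected gene, for the receptor genes (red) and the other gene lists (grey), with the number of genes in brackets and the median as a bar. Receptor, other Kupffer cell and pan-macrophage genes reach far below 0, and endothelial, stellate and hepatocyte markers lie near 0.

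The 6 genes whose pattern over the 4 arrays lay nearest to the mean pattern of the receptors were Cfp, Ccl6, Cybb, Cd44, Tyrobp and Cd163. Likeness was the root mean square distance between profiles centred on their own mean, with values below 4 set to 4, and it described these arrays without a test. Cfp was nearest, at a distance of 0.06 (log2). Ccl6, a chemokine of myeloid cells, followed at 0.16, and was at 3.75 on the high-fat and 3.72 on the low-fat diet with clodronate, against 7.20 and 7.17 with PBS. Among the receptors themselves, Adgre1 and Adgre4 lay closest to their mean pattern, at 0.19 and 0.20, and Timd4 lay farthest from it, at 1.58.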

How the data were processed

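The deposited values are log2 expression of 45101 probe sets, for which the submitters' processing notes name GCRMA 2.24.1, from 4 single-colour Affymetrix arrays. As a method, GCRMA models probe background, brings arrays to 1 distribution and summarises probes. Per the labels' protocols, 5 µg of total RNA with an integrity number above 8.0 was labelled. Precision is limited by 1 array per group. Gene names came from GEO's platform annotation, which gave 34958 probe sets 1 symbol. Each gene was represented by its probe set with the highest mean. Differences were taken after values below 4 were set to 4, so "at least" marks a fold with 1 side at that floor.

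Averaged effects came from limma 3.58.1 (R 4.3.3) on the deposited values of the 8650 genes. The additive model of injection and diet had a mean-dependent prior of 8.46 degrees of freedom, with calls at an adjusted p of 0.05. It was also run on simulated data, which were drawn from its own prior without a diet effect. That run therefore cannot speak to the limits of these arrays. Other steps used Python 3.11.15, numpy 2.4.6, pandas 2.3.3 and matplotlib 3.10.9. The genes, lists and tests were chosen with earlier results of these data known. All receptors were named. List genes could be named where they had the highest mean over the arrays or were among the 4 measured genes with the largest clodronate difference; not all of these are printed, and list members outside this rule, and C1qb in the diet comparison, were named after their values were seen. Alternatives varied the probe set, floor, filter, scaling, fold and prior. Promoter windows are from RefSeq, GRCm38.p6.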

Additional observations from a re-analysis of the deposited data

Results flagged for a closer look

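Diet differences of 3 probe sets ran in opposite directions with clodronate and with PBS, and whether they differed between the injections was not tested. Cd5l differed by 1.82 (log2, high-fat minus low-fat, a bound) with clodronate and by -0.07 with PBS. Adgre4 differed by 0.56 (a bound) with clodronate and by -0.62 with PBS. Probe set 1423593_a_at of Csf1r differed by 1.05 with clodronate and by -0.17 with PBS, while the probe set used for Csf1r differed by 0.25 and 0.01. These directions were the same after centring of the arrays and after quantile normalization, except that of the last value, which turned to -0.01 under quantile normalization. For Cd5l and Adgre4 the direction with clodronate was fixed by the floor, as the high-fat pool alone reached 4.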

How the results depend on the processing

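The count of receptor genes 2-fold or more lower after clodronate stayed between 7 and 10 on each diet over all alternatives, and the count that fell in limma between 8 and 10, except without the mean-dependent prior, where it was 5. Marco as the 1 gene lower on the high-fat diet with PBS was lost, leaving 0, with the mean of all probe sets and with a floor of 5, and a threshold of 1.5-fold gave 3 genes, Marco, Folr2 and Adgre4. With clodronate, Cd5l as the 1 gene higher on the high-fat diet was lost, leaving 0, with a floor of 5. The count that changed with diet in limma was 0 under every alternative. In the clodronate pools, centring of the arrays moved the median diet difference of all genes by 0.11 (log2), and that of Cd5l was then 1.89. Over single genes, 395 alternative values stayed on the same side of the threshold, 17 fell short of it, 6 passed it and none turned direction among called values. Part of the 395 could not move. A 2-fold difference also passes 1.5-fold, and the 7 genes with 1 probe set keep their fold when probe sets are averaged. The tally therefore overstates how stable the values are. No paired analysis was possible because each group held 1 array and the labels number no replicates; the diet term of the model already sets clodronate against PBS within each diet. Dimness limits Marco, Timd4 and Folr2, whose PBS levels lay close to the floor of 4.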
